A study of Mus musculus with 6 samples.

Results

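Jak1, Jak2, Stat3, Stat5a, Stat5b, Socs2, Socs3, Cish, Pim1 and Pim2 encode kinases, transcription factors, feedback inhibitors and survival kinases of cytokine signalling. These genes were chosen by name, with earlier results of these data known, as 10 of the 55487 genes in the table. They were measured by bulk RNA-seq of GFP+ bone marrow cells from the femora and tibiae of leukemic C57BL/6 mice, with 3 libraries labelled PBS and 3 labelled pIpC. In both groups the donor cells carried CD45.2(+), Mx1-Cre, Brd9fl/fl and MA9 (the MLL-AF9 fusion, which drives acute myeloid leukemia), and 1000 of them were given to irradiated CD45.1(+) CD45.2(-) recipients. From the next day the recipients received PBS, or pIpC at 20 mg/kg, in 3 doses, and cells were collected 10 days after injection. Mx1-Cre is switched on by interferon, and pIpC, a mimic of double-stranded RNA, was given to induce interferon and so delete Brd9. No group received pIpC without the floxed alleles, so deletion of Brd9 and exposure to pIpC, whose interferon response itself runs through JAK and STAT proteins, cannot be told apart here. The labels do not give the age of the mice or say that each library came from its own animal, so p-values measure the spread between these libraries, which may be technical.

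When a cytokine binds its receptor, JAK kinases attached to the receptor phosphorylate it and the STAT proteins that dock there, and paired STATs move to the nucleus and switch on target genes. Cish, Socs2 and Socs3 are such targets, and their proteins bind receptors or JAKs and damp the signal. Pim1 and Pim2 are also targets, and encode serine/threonine kinases that are active as soon as they are made and promote survival and growth. In myeloid cells STAT5 is the main transducer of IL-3, GM-CSF and erythropoietin, while STAT3 serves G-CSF and cytokines of the IL-6 family. The measurements here are RNA levels, and carry nothing on phosphorylation of any protein.

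The libraries labelled pIpC stood apart from the PBS libraries in ways that touch every result below. The normalized counts of Brd9, always given in the order of replicates 1, 2 and 3, were 1927, 1946 and 1632 for PBS, and 2036, 2263 and 2011 for the libraries labelled pIpC (log2 fold change 0.20, SE 0.13, limma adjusted p = 0.259). It was therefore not lower in the libraries labelled pIpC, although a count over the whole gene includes bases outside the floxed exons and does not check their loss. Xist, expressed from an inactive X chromosome, was at 15.8 to 72.9 in PBS and at 18429 to 26173 in the libraries labelled pIpC. The groups did not overlap, so the sex of the cells, or whatever else set Xist apart, cannot be told apart from treatment here. The summed normalized count of Hoxa9, Hoxa10 and Meis1, which mark MLL-AF9 leukemia cells, was 10125 to 10484 in PBS libraries and 470 to 527 in those labelled pIpC, and all 3 genes were lower. The summed counts of markers of other blood cells moved the other way, except that of the macrophage genes, which was lower. Of 12 neutrophil genes 11 were higher (sums of 72645 to 149715 against 2195008 to 2283518), and of 9 macrophage genes 5 were higher and 3 lower (12647 to 16761 against 8193 to 9753). Among all 15020 genes tested by limma at an adjusted p under 0.1, 25.0% were higher and 20.4% lower. The summed counts of erythroid genes were 21.6 to 44.1 against 4667 to 6839, of B cell genes 137 to 304 against 1430 to 2741 and of megakaryocyte genes 390 to 570 against 1664 to 2137. The T and NK cell sum was 185 to 323 against 3883 to 4523, of which Nkg7 was 162 to 301 against 3702 to 4312, and the other genes of that list 21.3 to 23.4 against 182 to 212. All tested genes of these 4 lists were higher, but 10 of 11 erythroid, 8 of 10 B cell, 5 of 6 T and NK cell and 2 of 6 megakaryocyte genes tested reached the minimum mean count for testing only through the libraries labelled pIpC, as did the macrophage gene Siglec1, so that their direction was fixed by the filter. The erythroid genes Slc4a1 and Rhag, the B cell gene Ms4a1, the T cell gene Trac and the platelet gene Ppbp had no read in any PBS library. The part of these cells in the results below was not tested, and in bulk RNA fewer cells of a type and less RNA per cell cannot be told apart. PBS replicate 3 differed from the other PBS libraries, with 19838 genes detected against 21165 to 22339 elsewhere, and it had the lowest PBS value for 7 of the 10 genes, so the changes of the 10 genes are also given without it.

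A STAT dimer binds DNA at a GAS element, a palindrome spelled TTCNNNGAA, and the promoters of a feedback gene with 2 such matches, a feedback gene with 1 and the 2 PIM genes, which moved differently, are shown to set these letters beside the values that follow. Each window holds the 250 bases before a RefSeq transcript start and the 30 bases after it, 280 in all, printed 5′ to 3′ on the gene's strand from the GRCm38.p6 table, with each match in capitals. A window was at hand for 9 of the 10 genes, 12 windows in all, and none for Socs2.
Cish (chr9:107296409-107296688, + strand): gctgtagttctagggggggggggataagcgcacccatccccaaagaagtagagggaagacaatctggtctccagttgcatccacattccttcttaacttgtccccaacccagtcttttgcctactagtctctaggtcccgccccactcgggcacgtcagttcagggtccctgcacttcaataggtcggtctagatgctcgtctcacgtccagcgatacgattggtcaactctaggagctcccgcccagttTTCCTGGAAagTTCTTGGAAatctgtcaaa
Socs3 (chr11:117969337-117969616, - strand): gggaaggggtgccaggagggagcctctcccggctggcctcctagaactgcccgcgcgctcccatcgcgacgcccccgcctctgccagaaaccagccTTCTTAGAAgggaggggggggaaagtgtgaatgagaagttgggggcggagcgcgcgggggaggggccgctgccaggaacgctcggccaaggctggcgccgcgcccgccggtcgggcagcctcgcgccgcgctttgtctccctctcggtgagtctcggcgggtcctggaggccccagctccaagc
Pim1 (chr17:29490535-29490814, + strand): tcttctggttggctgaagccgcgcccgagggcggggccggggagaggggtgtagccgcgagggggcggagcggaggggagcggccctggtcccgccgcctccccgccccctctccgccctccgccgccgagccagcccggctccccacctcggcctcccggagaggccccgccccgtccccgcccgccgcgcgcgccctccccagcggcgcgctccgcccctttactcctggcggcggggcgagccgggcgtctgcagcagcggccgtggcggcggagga
Pim2 (chrX:7878056-7878335, + strand): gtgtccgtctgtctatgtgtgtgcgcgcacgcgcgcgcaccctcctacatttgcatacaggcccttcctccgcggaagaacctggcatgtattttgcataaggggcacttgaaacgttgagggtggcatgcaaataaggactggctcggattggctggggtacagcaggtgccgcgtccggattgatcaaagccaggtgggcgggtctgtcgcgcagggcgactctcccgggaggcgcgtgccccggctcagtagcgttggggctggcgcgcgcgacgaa

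The Cish window held TTCCTGGAA and TTCTTGGAA, at bases 1 to 9 and 12 to 20 counted from the transcript start. The Socs3 window held TTCTTAGAA, from 154 to 146 bases before the start. No match was found in the windows of the other 7 genes, which says only that these letters are not in these windows. Because the motif is its own reverse complement, both strands were read at once. Among all 32851 windows of this length, 7.83% held the motif at least once and 0.408% held it at least 2 times. The narrower spelling TTCCNGGAA, held by the first Cish match, was in 1.07% of windows. A match is a string of letters and no evidence of binding.

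Of the 10 genes, 7 were higher in the libraries labelled pIpC, none was lower and 3 did not pass the test. Among all 15020 genes tested 45.3% passed, 25.0% higher and 20.4% lower. The 7 were Jak1, Jak2 and Stat3, which rose less than 2-fold, and Pim1, Cish, Socs2 and Socs3, which rose over 5-fold, while Stat5a, Stat5b and Pim2 did not pass. The test was limma on log2(normalized count + 1) with a Benjamini-Hochberg adjusted p under 0.1, and log2 fold changes are those of the libraries labelled pIpC against PBS, on that scale. The median log2 fold change of the 10 genes was 0.82, against 0.01 for all genes tested. Socs2 and Socs3 reached the minimum mean normalized count of 10 only through the libraries labelled pIpC and so had to differ; of the other 8 genes, 5 passed. The 3 values of each group did not overlap for 8 of the 10 genes, as for 56.8% of all genes tested.

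**Figure D1:**
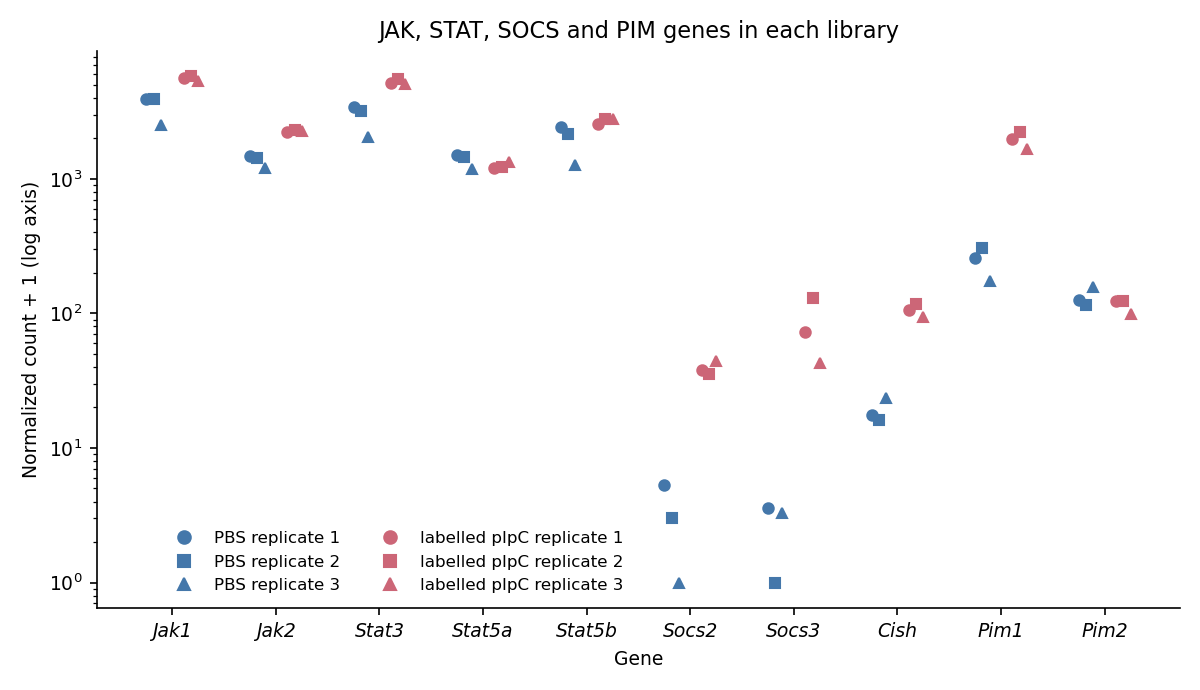
Normalized count plus 1 (log axis) of each of the 10 genes in each of the 6 libraries, with blue symbols for PBS, red for the libraries labelled pIpC, and circles, squares and triangles for replicates 1, 2 and 3. The groups overlap only for Stat5a and Pim2, and a value of 1 on the axis is a count of 0, as for Socs2 in PBS replicate 3 and Socs3 in PBS replicate 2.

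Both kinase genes were higher in the libraries labelled pIpC. Jak1 encodes the kinase bound by receptors of the IL-6 and interferon families, and lies on chromosome 4 (GRCm38, 101152367 to 101265282, minus strand). Its normalized counts were 3899, 3897 and 2504 in PBS and 5642, 5813 and 5345 in the libraries labelled pIpC. Every library labelled pIpC was above every PBS library, and PBS replicate 3 was well below the other 2. Jak1 rose by a log2 fold change of 0.73 (SE 0.20, limma adjusted p = 0.0259), or 0.52 without PBS replicate 3. Jak2, the kinase of the erythropoietin and IL-3 receptors (chromosome 19, 29251828 to 29313080, plus strand), had normalized counts of 1492, 1430 and 1204 in PBS and 2238, 2295 and 2264 in the libraries labelled pIpC. These groups were also apart, and the libraries labelled pIpC lay within a narrow range. Jak2 rose by 0.73 on the log2 scale (SE 0.13, limma adjusted p = 0.00438), or 0.63 without PBS replicate 3. The log2 ratio of Jak1 to Jak2 within a library was 1.39, 1.45 and 1.06 in PBS and 1.33, 1.34 and 1.24 in the libraries labelled pIpC, a difference of 0.01 (exact permutation p = 1, 2-sided). Its sign turned when PBS replicate 3 was left out, to -0.11.

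The STAT genes did not move alike. Stat3, on chromosome 11 (100885098 to 100939540, minus strand), had normalized counts of 3408, 3183 and 2043 in PBS and 5193, 5551 and 5055 in the libraries labelled pIpC. All 3 of the latter were above all 3 of the former, with PBS replicate 3 again lowest. Stat3 rose by 0.91 on the log2 scale (SE 0.21, limma adjusted p = 0.0146), or 0.68 without PBS replicate 3.

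Stat5a and Stat5b encode closely similar STAT5 proteins and are neighbours in opposite orientation on chromosome 11, Stat5b from 100780731 to 100850724 on the minus strand and Stat5a from 100859351 to 100885169 on the plus strand, with 8626 bases between them. Reads that fit both could have been dropped or assigned to either gene by the counting, so the division of STAT5 counts is uncertain. Stat5a had normalized counts of 1510, 1456 and 1177 in PBS and 1199, 1234 and 1344 in the libraries labelled pIpC. The groups overlapped, and the log2 fold change was -0.13 (SE 0.14, limma adjusted p = 0.508, 95% interval from -0.46 to 0.21). Without PBS replicate 3 the fold change was -0.24 and passed the test (limma adjusted p = 0.0248). Stat5b had normalized counts of 2437, 2159 and 1266 in PBS and 2559, 2793 and 2786 in the libraries labelled pIpC. The groups did not overlap, but PBS replicate 1 came close to the lowest library labelled pIpC, and the log2 fold change of 0.53 (SE 0.25, limma adjusted p = 0.142, 95% interval from -0.06 to 1.11) missed the threshold. It passed without PBS replicate 1 (0.71, adjusted p = 0.0709) and, at a smaller change, without PBS replicate 3 (0.24, adjusted p = 0.0251).

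The log2 ratio of Stat5a to Stat5b was -0.69, -0.57 and -0.11 in PBS and -1.09, -1.18 and -1.05 in the libraries labelled pIpC. These ratios of counts are not corrected for transcript length and so do not rank the pair, but each library labelled pIpC was below every PBS library. The difference was -0.65 (exact permutation p = 0.1, 2-sided, the smallest that 3 against 3 libraries allow, 0.167 after Benjamini-Hochberg adjustment over 5 ratios), or -0.48 without PBS replicate 3. Stat5a and Stat3 also meet tail to tail, and their exons share 72 bases, 1.01% of those of Stat5a and 0.756% of those of Stat3. The labels describe unstranded libraries, in which reads from that overlap cannot be assigned to either gene.

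Of the feedback genes, Socs2 and Socs3 were near the floor of detection in the PBS libraries, and Cish was low but detected in each. Cish encodes CIS, a SOCS protein induced by STAT5 that binds cytokine receptors, and lies on chromosome 9 (107296026 to 107302784, plus strand), with the GAS letters printed above at its RefSeq start. Its normalized counts were 16.4, 15.2 and 22.6 in PBS and 104.8, 117.5 and 93.8 in the libraries labelled pIpC, from 54 and 317 reads in all. The groups were far apart, and here PBS replicate 3 was the highest of its group. Cish rose by 2.49 on the log2 scale (SE 0.26, limma adjusted p = 0.000507), or 2.66 without PBS replicate 3. The ratio of its read rates was 5.89, with an exact 95% interval from 4.41 to 8.02 that covers counting error only.

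Socs3, which binds JAKs and the IL-6 and G-CSF receptors and is a target of STAT3, lies on chromosome 11 (117966079 to 117970047, minus strand). It had normalized counts of 2.60, 0 and 2.26 in PBS and 71.9, 129.8 and 41.6 in the libraries labelled pIpC. The libraries labelled pIpC differed among themselves by more than for any other of the 10 genes in proportion, yet each was far above PBS. Socs3 rose by 5.03 on the log2 scale (SE 0.65), and 5.29 without PBS replicate 3. It was tested only through its counts in the libraries labelled pIpC, so it is given as a value, without its p-value. With 5 reads in PBS against 242, the ratio of read rates was 48.6. Its exact 95% interval, from 20.5 to 151, covers counting error only and not the spread between libraries.

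Socs2, the feedback gene best known for its action on growth hormone signalling, lies on chromosome 10 (95385362 to 95417180, minus strand) and had normalized counts of 4.33, 2.02 and 0 in PBS and 36.9, 34.7 and 43.5 in the libraries labelled pIpC. Socs2 rose by 3.96 on the log2 scale (SE 0.64), or 3.29 without PBS replicate 3, in which no read was counted. Like Socs3, it was tested only through the libraries labelled pIpC and is given without its p-value. From 7 reads against 116, the ratio of read rates was 16.6. Its exact 95% interval, from 7.82 to 42.3, also covers counting error only. The log2 fold changes of Socs2 and Socs3 depend on the pseudocount, and ran from 2.01 to 5.29 and from 2.86 to 6.41 over the alternatives.

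Within libraries, the feedback genes could be compared with Cish. The log2 ratio of Socs3 to Cish was -2.28, -4.02 and -2.86 in PBS and -0.54, 0.14 and -1.15 in the libraries labelled pIpC, so that the groups did not overlap. The difference was 2.53, or 2.63 without PBS replicate 3. Socs2 and Socs3 were tested only through the libraries labelled pIpC, so their ratios to Cish are given as values, without p-values. The ratio of Socs2 to Cish was -1.71, -2.42 and -4.56 in PBS and -1.48, -1.73 and -1.09 in the libraries labelled pIpC, which overlapped (difference 1.46). That difference was 0.63 without PBS replicate 3, and with a pseudocount of 10 in place of 1 it was -0.03, so no order of Socs2 and Cish changes can be read from it. The markers of lymphoid, erythroid and megakaryocyte cells, several with no read in the PBS libraries, were higher beside these genes of low count. For most erythroid and lymphoid markers tested, and some megakaryocyte ones, that direction was fixed by the filter, as given above. Of 12 neutrophil markers, 11 were also higher and none lower, beside 25.0% higher and 20.4% lower of all genes tested. The part of any of these cells in the feedback genes was not tested.

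The PIM kinase genes parted. Pim1, on chromosome 17 (29490753 to 29496112, plus strand), had normalized counts of 258.7, 306.7 and 173.1 in PBS and 1967, 2227 and 1655 in the libraries labelled pIpC. The lowest library labelled pIpC was over 5 times the highest PBS library. Pim1 rose by 3.01 on the log2 scale (SE 0.24, limma adjusted p = 0.000148), or 2.78 without PBS replicate 3, and the ratio of mean normalized counts was 7.92. Pim2, on chromosome X (7878262 to 7883432, plus strand), had normalized counts of 124.6, 115.4 and 155.0 in PBS and 122.8, 122.6 and 97.7 in the libraries labelled pIpC. These overlapped, and the log2 fold change was -0.20 (SE 0.21, limma adjusted p = 0.493, 95% interval from -0.70 to 0.30), or -0.08 without PBS replicate 3. The interval excludes a rise of the size of that of Pim1.

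The log2 ratio of Pim1 to Pim2 was 1.05, 1.40 and 0.16 in PBS and 3.99, 4.17 and 4.07 in the libraries labelled pIpC. The PBS libraries varied more widely than the others, and the groups did not overlap. The difference of 3.21 had the smallest exact permutation p that the design allows (0.1, 0.167 after adjustment over the 5 ratios), and was 2.85 without PBS replicate 3. Pim3, the remaining PIM gene, went the opposite way, with mean normalized counts of 527.6 in PBS and 246.8 in the libraries labelled pIpC (log2 fold change -1.08, limma adjusted p = 0.00284), or -1.18 without PBS replicate 3. Antisense genes overlap the exons of Pim1 (14.5% of its exon bases, by Gm26885) and of Cish (4.07% by Gm17040 and 7.46% by Gm17041). Their normalized counts were at most 0.967 for Gm26885, 1.13 for Gm17040 and 0 for Gm17041, so little was counted for any of them. Reads from the shared bases cannot be assigned in unstranded libraries, so these counts do not show how many fell there.

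**Figure D2:**
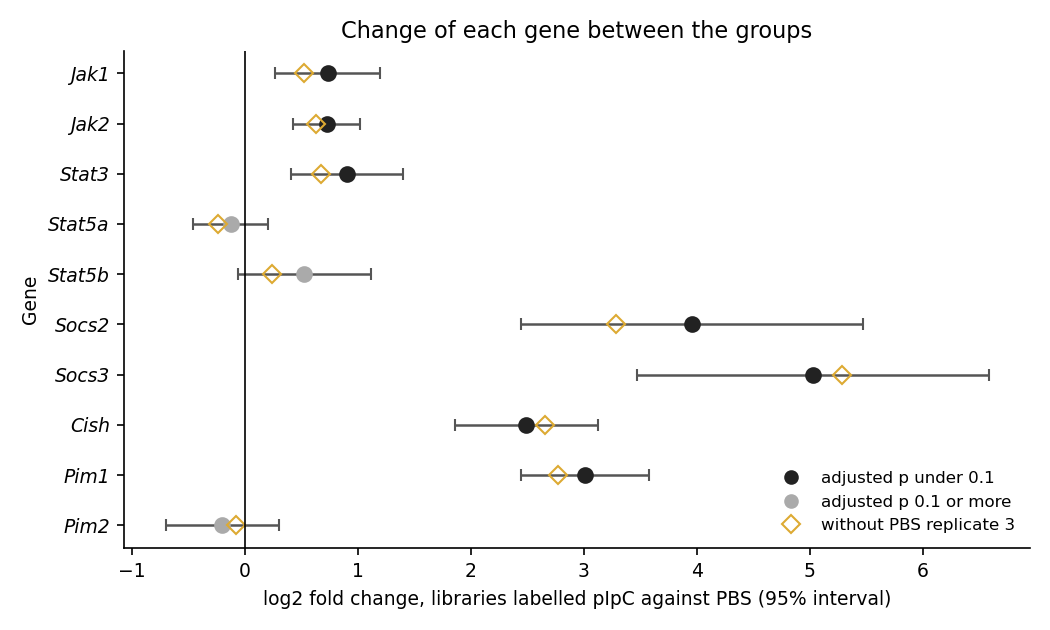
Log2 fold change of each gene in the libraries labelled pIpC against PBS from limma, with its 95% interval (n = 3 and 3), in black where the adjusted p was under 0.1 and grey otherwise. Open diamonds give the value without PBS replicate 3, which stays on the same side of 0 for every gene and is 0.24 for Stat5b. Socs2 and Socs3 are black, but were tested only through the libraries labelled pIpC.

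**Figure D3:**
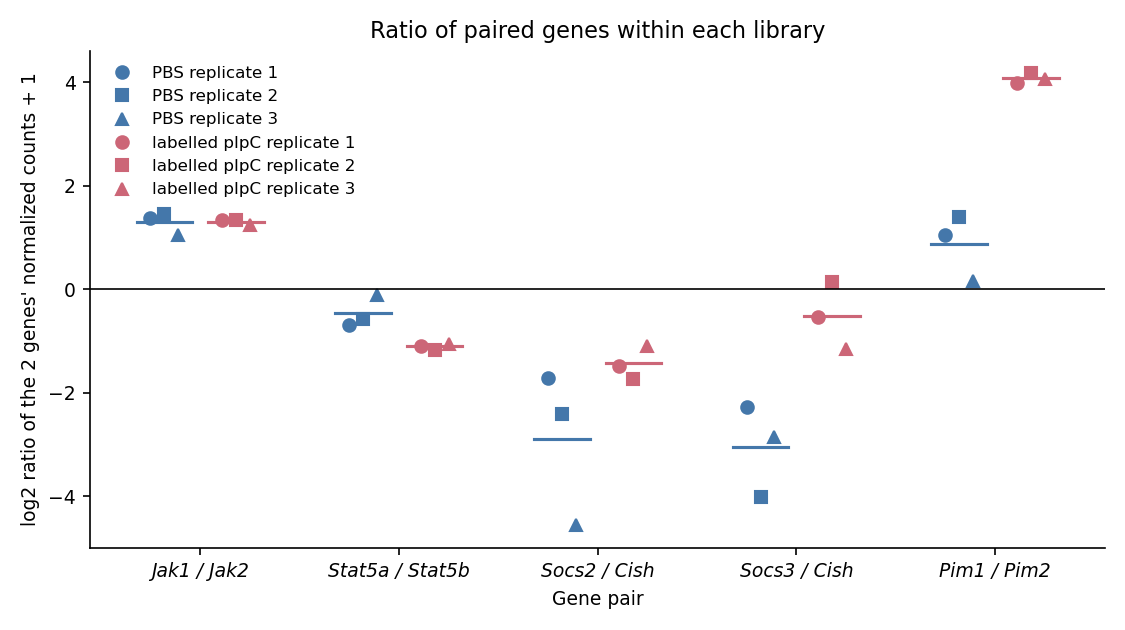
Log2 ratio of 2 genes within each library for 5 pairs, with a short line at the mean of the 3 libraries of a group, and symbols as for replicates 1, 2 and 3. Pim1 against Pim2 lies between 3.99 and 4.17 in the libraries labelled pIpC and between 0.16 and 1.40 in PBS, while Jak1 against Jak2 overlaps.

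Levels of different genes can be compared only per length of transcript. Per kilobase of the longest annotated transcript, mean normalized counts in PBS were 699.8 for Jak1, 476.3 for Stat3, 374.9 for Stat5b, 348.9 for Stat5a, 273.4 for Jak2, 91.2 for Pim1, 64.4 for Pim2, 3.85 for Cish, 0.635 for Socs3 and 0.499 for Socs2 (n = 3). Neighbours whose PBS values overlapped, and so did not differ beyond their spread, were Jak1 and Stat3, Stat3 and Stat5b, Stat5b and Stat5a, Pim1 and Pim2, and Socs3 and Socs2. In the libraries labelled pIpC the order was Jak1 (1141), Stat3 (872), Pim1 (723), Stat5b (520), Jak2 (450), Stat5a (318), Pim2 (55.9), Socs3 (31.8), Cish (22.4) and Socs2 (9.05). Only Pim2 with Socs3 and Socs3 with Cish overlapped there. Pim1 thus stood next to Pim2 in PBS and between Stat3 and Stat5b in the libraries labelled pIpC. The place of a gene in the PBS order rests on the transcript taken, since 6 of the 10 kept theirs with the mean transcript length.

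The other genes of the pathway were read from lists of ligands, receptors, remaining kinases and STATs, remaining SOCS genes, Pim3, negative regulators and targets, 106 genes of which 88 were tested. Of these 39 were higher, 18 lower and 31 did not pass, and their median log2 fold change was 0.41. Among them 9, such as Tslp, Epor, Ccnd1 and Lif, reached the minimum mean count through 1 group only and so had to differ. Of the other 79, 31 were higher and 17 lower. Of all 88, 64.8% passed, beside 45.3% of all genes tested (25.0% higher and 20.4% lower). The lists were chosen with earlier results of these data known. Genes named from here on besides the highest and lowest of each list were chosen after their values were seen.

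Most cytokine genes were hardly read, and 5 of 18 were tested. Tslp, a cytokine of epithelial and stromal cells, had the highest fold change (2.76 on the log2 scale), and Clcf1 and Osm, of the IL-6 family, were also higher (2.13 and 1.04). Lif, of the same family, was the lowest (-3.30). Tslp was tested only through its counts in the libraries labelled pIpC and Lif only through PBS, so both are given as values, without their p-values. Il15 did not pass (-0.45). Il3, Epo, Thpo and Ifnb1 had no read in any library.

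Of 27 receptor genes tested among 32, 14 were higher, 6 lower and 7 did not pass, and 6 of the 14 were among those tested only through the libraries labelled pIpC. The share that passed was 74.1%, beside 45.3% of all genes tested. Epor, the erythropoietin receptor, was at 1.73, 3.04 and 0 in PBS and 151.7, 109.3 and 227.2 in the libraries labelled pIpC (log2 fold change 6.14), and was tested only through the latter. Erythroid markers were higher beside it, as given above, and their part was not tested. Il6st, the gp130 chain shared by the IL-6 family, rose by 4.09 on the log2 scale, and the myeloid receptors Csf3r and Csf2rb by 0.94 and 0.86. Il3ra, the IL-3 receptor alpha chain, was the lowest (-1.48, limma adjusted p = 0.0197), with 1295, 1108 and 2950 in PBS and 544.9, 691.7 and 516.4 in the libraries labelled pIpC, and -1.05 without PBS replicate 3. The chains of the GM-CSF receptor thus moved apart, Csf2ra being lower (-0.45).

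Among the remaining kinases and STATs, 2 of 6 passed (33.3%, beside 45.3% of all genes tested). They were Stat4 (1.28, limma adjusted p = 0.00146) and Stat6 (0.78), both higher. Jak3, Tyk2 and Stat2 were among those that did not pass (0.13, 0.24 and -0.10). The remaining SOCS genes were mixed, and 60.0% of the 5 passed, beside 45.3% of all genes tested. Socs4 was higher (0.73, limma adjusted p = 0.0355) and Socs5 and Socs6 lower (-0.87, limma adjusted p = 0.0253, and -0.61), while Socs1, the SOCS gene of interferon signalling, did not pass (0.63) and neither did Socs7 (0.08). These 5 genes ran from -0.87 to 0.73 on the log2 scale, beside 2.49 for Cish. Socs2 and Socs3 (3.96 and 5.03) were tested only through the libraries labelled pIpC, so their direction was fixed by the filter.

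Of 17 genes for phosphatases, adaptors and PIAS proteins, many of which restrain the pathway, 7 were higher and 2 lower. The share that passed was 52.9%, beside 45.3% of all genes tested. Cbl, a ubiquitin ligase for activated receptors, had the highest value (1.10, limma adjusted p = 0.0925, and 0.56 without PBS replicate 3). The lower ones were Sh2b2, an adaptor that binds JAK2 (-1.25, limma adjusted p = 0.000567), and Stam (-0.68).

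Among 18 tested targets of STAT3 and STAT5 other than the 10 genes, 11 were higher, 5 lower and 2, Bcl2 and Junb, did not pass. The share that passed was 88.9%, beside 45.3% of all genes tested. Lrg1, a secreted glycoprotein stored in neutrophil granules, rose from a mean normalized count of 34.8 to 4764 (7.17 on the log2 scale, limma adjusted p = 3.48e-05), beside the neutrophil markers given above, whose part was not tested. The D-type cyclin gene Ccnd2 rose by 6.58 on the log2 scale, and Ccnd1, tested only through the libraries labelled pIpC, had a value of 4.46. Bcl6, a repressor that STAT5 is known to silence, rose by 1.82. The lower ones were Cdkn1a, the p21 cell cycle inhibitor (-1.82, limma adjusted p = 0.000234), Fos (-1.68), Id1 (-1.45), Myc (-0.81) and Gfi1 (-0.48). The listed targets changed in both directions. Since the list includes Bcl6, which STAT5 is known to silence, these directions say nothing on STAT activity, which was not measured.

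Of 10 interferon targets, 2 were higher, 1 was lower and 7 did not pass at 10 days after injection, so that 3 of 10 were called, beside 45.3% of all genes tested. Gbp2 was the highest (2.30, limma adjusted p = 0.00283), Irf1 was also higher (0.80), and Oas1a was the lowest (-1.34, limma adjusted p = 0.0665). Ifit1 was at 28.6, 21.3 and 29.4 in PBS and 182.6, 38.8 and 25.1 in the libraries labelled pIpC, so that replicate 1 of the latter stood well above the other 5 libraries.

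**Figure D4:**
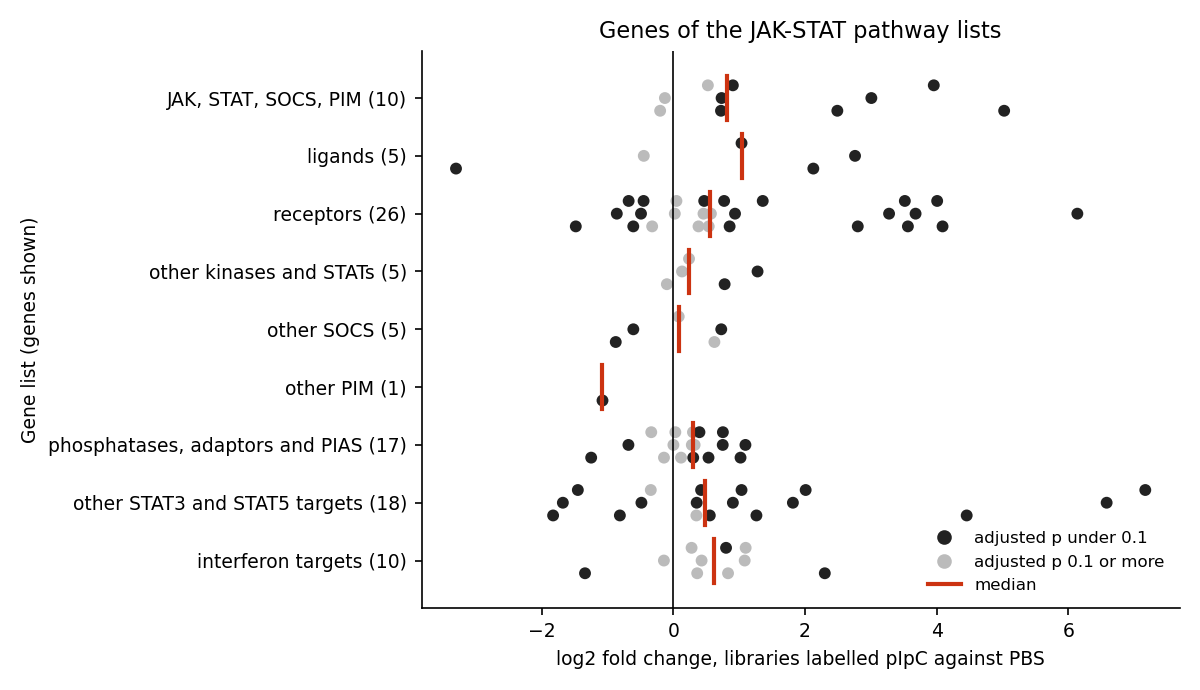
Log2 fold change of tested genes of the pathway lists in the libraries labelled pIpC against PBS, in black where the limma adjusted p was under 0.1 and grey otherwise, with a red line at the median of the genes shown in each list and the number of genes shown in brackets (vertical offsets only separate points). The 10 genes have a median of 0.82 and the 17 phosphatases, adaptors and PIAS genes 0.30, while the STAT3 and STAT5 targets run from -1.82 to 7.17.

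Among 98 pathway genes, the one with the most alike pattern over the 6 libraries was found for each of the 10 by Pearson correlation of log2(normalized count + 1). These 6 points fall into the 2 groups, so r mostly carries the difference between them and is given as a description. Jak1 was most like Ptpn11 (r = 0.998), Jak2 like Spred2 (0.995), Stat3 like Ptprc (0.997), Stat5b like Cbl (0.989), Cish like Ccnd3 (0.992), Socs2 like Spred2 (0.999), Socs3 like Bcl3 (0.984) and Pim1 like Il10ra (0.996). Stat5a and Pim2, which did not pass the test, had lower values, with Cblb (0.864) and Oas1a (0.896).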

How the data were processed

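RNA-seq of 6 bone marrow samples, 3 labelled PBS and 3 labelled pIpC, was analysed. The authors deposited 1 table of gene counts divided by a size factor for each library, a signal and not raw counts. The submitters' processing notes name HISAT2 2.2.1, SAMtools, featureCounts, Subread and edgeR with build GRCm38, while the study's methods name another aligner and DESeq2, and also c-Kit+ cells, stranded libraries and a lower radiation dose. Which was used for this table is not given in the sources used here. Every value above 0 (100%) came to a whole number of reads within 0.01 once divided by what 1 read is worth, and recovered reads ranged from 19277439 to 22378154 in PBS and from 22348517 to 23586722 in the libraries labelled pIpC.

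The 15020 genes whose normalized count averaged 10 or more over the libraries were fitted with limma 3.58.1 (R 4.3.3, trend set) on log2(normalized count + 1), without a replicate block, at a Benjamini-Hochberg adjusted p under 0.1. This understates the change of low genes. Ratios of 2 genes were compared by an exact permutation test over libraries, 2-sided, with adjustment over 5 ratios (scipy 1.17.1), and counting intervals of read ratios are exact binomial, at 95%. Named genes were the 10 genes, Brd9, the highest and lowest of each of 8 pathway lists, and the most alike gene of each of the 10. These genes and lists were chosen with earlier results of these data known. Symbols, positions and lengths came from GENCODE M21 on GRCm38 and promoters from RefSeq. As alternatives, the pseudocount was set to 0.1 or 10, the filter was dropped or raised to 50, values were quantile normalized or log ratios centred on their median, the trend was left out, and the threshold was set to 0.05. Others were edgeR 4.0.16 and DESeq2 1.42.0 on recovered reads, fits with 1 library fewer, a replicate block, and other transcript lengths, the longest protein-coding one being added after the data were seen. Some listed genes are not reported here. The scripts were tested on simulated data. The correlation of same-numbered libraries' deviations was -0.117, 0.143 and 0.041, so replicate numbers were not taken as pairs.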

Additional observations from a re-analysis of the deposited data

How the results depend on the processing

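Over the alternatives, 165 of 168 values for the 10 genes kept their direction and their side of the threshold and none reversed; the exceptions were Stat5a without PBS replicate 3 and Stat5b without PBS replicate 1 or 3, which then passed. The count of the 10 genes that passed was 7 in most settings, 5 of 8 tested with a mean of at least 50 (Socs2 and Socs3 were then not tested), 8 without PBS replicate 1, and 9, 8 higher and 1 lower, without PBS replicate 3. With a replicate block it was 7, as against 52 of the other pathway genes in place of 57 and 6095 of all genes in place of 6808, and no call for the 10 genes changed. For all genes, leaving out 1 library gave between 4650 and 9783 calls, the latter without PBS replicate 3. Quantile normalization moved the median of all genes from 0.01 to -0.10, and the share of calls that were higher from 55.1% to 45.8%, with the 7 calls unchanged in number. Of 219 values for other named pathway genes, 206 kept their call, 13 no longer passed and none reversed. The lost calls were those of Cbl, Oas1a, Socs4 and Socs5. The Jak1 to Jak2 difference ranged from -0.11 to 0.0838 with 1 library left out, and was below 0 without PBS replicate 3 or without replicate 1 or 2 of the libraries labelled pIpC. The Socs2 to Cish difference was -0.0335 with a pseudocount of 10. With the mean transcript length, and with the longest protein-coding transcript, 6 and 6 of the 10 genes kept their place in the PBS order. The causes were not tested. Brd9 ranged from 0.06 to 0.24 and never passed. Depth limits Socs2 and Socs3, which rest on 7 and 5 reads in PBS. Their direction was fixed by the filter in the settings that kept it, so their unchanged calls there carry no support.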
